A study of Mus musculus with 8 samples.

Results

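Reln-positive Cajal-Retzius-like neurons of the adult mouse hippocampus were selected on their own counts. A cell was a member if at most 20% of its unique molecular identifiers (UMIs, the counted RNA molecules) came from mitochondrial genes, if it held at least 2 UMIs of Reln and if it held at least 1 UMI in total of Nhlh2, Lhx1 and Lhx5. The rule found 104 members among 5205 kept cells, or 1.998% of them. The study profiled hippocampal cells of 8 mice by droplet single-cell RNA sequencing, 4 exposed to lead (Pb) through their dams and 4 controls, with 2 females and 2 males in each group. All were wildtype a/a offspring taken at 5 months of age. Dams of the Pb group drank water with 32 ppm Pb-acetate from 2 weeks before mating until the end of lactation, and the offspring had Pb-free water after weaning. Control dams were not given Pb. The tissue of both groups was digested with enzymes in a heated dissociator, and the cells were frozen and thawed before loading. 1 male and 1 female of each litter were kept, and the labels do not tie a mouse to a litter, so mice of one group may share a dam.

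Cajal-Retzius cells are among the earliest neurons of the cortex and hippocampus. They lie in the marginal zone, under the pia, and along the hippocampal fissure, and they secrete reelin, the large extracellular glycoprotein encoded by Reln. Reelin binds the lipoprotein receptors encoded by Vldlr and Lrp8 on other neurons, whose adaptor protein Dab1 is then phosphorylated, and this signal guides the layering of migrating neurons. Most of these cells die after birth, and some persist in the hippocampus. Reln is also made by a set of adult GABAergic interneurons, and the rule asked for the transcription factor genes Nhlh2, Lhx1 and Lhx5 as well.

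By the counts that define the group, most members lay well above the limits of the rule. The nearest members and other cells met at 2 Reln UMIs. Members held a median of 11 Reln UMIs, with a lowest of 2 and a highest of 34, and a median of 7 UMIs of the 3 transcription factor genes, with a lowest of 2 and a highest of 24. Of the 104 members, 99 had at least 3 UMIs on both counts. The other 5 had a median of 21 UMIs of the neuronal long non-coding RNA Snhg11. No other kept cell held more than 2 Reln UMIs. Just outside the rule lay 24 cells with 2 Reln UMIs and none of the 3 factors. These were deep cells (median 11567 UMIs) with a median of 0 Snhg11 UMIs. Another 10 cells had 1 Reln UMI and at least 1 UMI of a factor. All but 1 of those had no Snhg11 UMI, and the exception held 34. These values follow from the rule and are given as a description.

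**Figure D1:**
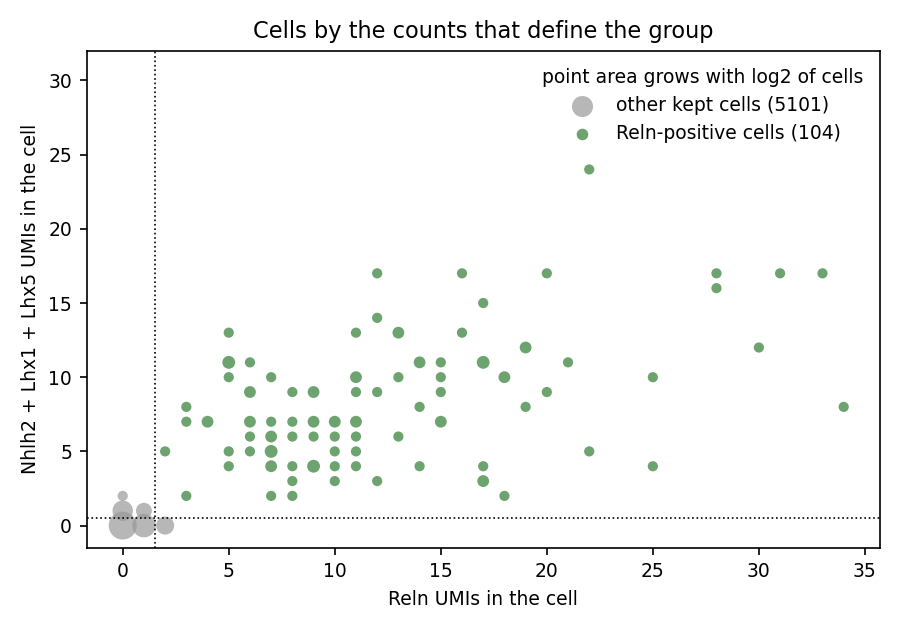
Every kept cell by its Reln UMIs (x axis) and its summed UMIs of Nhlh2, Lhx1 and Lhx5 (y axis), with the 104 members in green, the 5101 other cells in grey and the limits of the rule as dotted lines; the area of a point grows with the log2 of the number of cells at that place. The highest Reln count among other cells is 2, against a median of 11 in members.

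Members came from every mouse, from 2 cells in control female F1 to 30 in Pb female F1, and their summed UMIs ranged from 18062 to 172662 per mouse. Kept cells held 1749079 to 8656545 UMIs per mouse. Members had a median of 6571.5 UMIs and 2866 genes, and the other cells 5999 UMIs and 2389 genes. The median mitochondrial percent was 2.69 in members and 3.43 in the other cells. Scrublet, a doublet caller, marked 0 members and 33 of all 5258 cells (0.628%). Between mice, 32 cell barcodes were shared, 1 of them a member's. With 2 cells, the sums of control female F1 are the least precise: a gene at 0 there may still lie at up to 166 CPM (UMIs of a gene scaled to a class total of 1000000 UMIs; 3 counts taken as the limit that a 0 allows). Such limits cover counting error only.

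The given markers were all present. Snhg11 and Meg3, both long non-coding RNAs abundant in neurons, had a UMI in 104 of 104 members. In Pb mice F1, F2, M1 and M2 the Snhg11 level was 4390.1, 6334, 5456 and 5033 CPM. Control mice F1, F2, M1 and M2 had 3267, 4744, 5171 and 3870.4 CPM. The other cells of all mice together lay at 34.7 CPM. Meg3 reached 4512, 8285, 6012 and 6231 CPM in the Pb mice and 5537, 4399, 6452 and 5004 CPM in the controls, against 103 CPM in the other cells. For both RNAs the Pb and control ranges overlapped, and all 8 mice were far above the other cells.

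The transcription factors of the rule differed in how many members held them. Nhlh2, a basic helix-loop-helix factor, was detected in 101 of 104 members, Lhx1 in 83 and Lhx5 in 79, the last 2 being LIM-homeodomain factors. All 3 were detected together in 65 members, and 8 had neither Lhx1 nor Lhx5. Those 8 cells had a median of 5435 UMIs, below the median of 6604 in the 96 members with either gene. Lhx5 was at 0 in both cells of control female F1 and at 167 to 336 CPM in the other 7 mice. The adjacent non-coding gene Lhx1os, which the rule did not use, was detected in 87 members.

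Lhx1 and Lhx1os start head to head on chromosome 11, and 71 members held UMIs of both. Another 12 held Lhx1 alone, 16 held Lhx1os alone and 5 held neither. Among the 5101 other cells, 9 had Lhx1, 101 had Lhx1os and 0 had both. The homeobox gene Emx2 and its divergent partner Emx2os on chromosome 19 are arranged the same way. Of the members, 14 held both, 70 held Emx2 alone, 4 held Emx2os alone and 16 held neither. Among the other cells, 9 held both, 120 held Emx2 alone and 69 held Emx2os alone. Emx2os had 24 UMIs over all members and Lhx1os 263, which limits how often each could be seen with its partner. Whether the genes of a pair were detected together beyond their separate shares was not tested. The Lhx1 and Emx2 stretches between the paired starts are shown because each separates such a pair. The stretches before the starts of Reln and Nhlh2 are shown for the genes of the rule. All are RefSeq sequences of GRCm38.p6, printed 5′ to 3′ on the strand of the named gene, with CCAAT boxes of either strand (CCAAT or ATTGG) in capitals. The labels of the paired gaps name the genes by rising coordinate. The Lhx1 stretch, on the minus strand, is therefore printed from its Lhx1os end to its Lhx1 end.
Lhx1 to Lhx1os, chr11:84525535-84525659, minus strand: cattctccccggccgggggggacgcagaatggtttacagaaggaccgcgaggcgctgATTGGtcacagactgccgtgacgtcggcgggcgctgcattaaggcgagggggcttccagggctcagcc
Emx2os to Emx2, chr19:59458636-59458689, plus strand: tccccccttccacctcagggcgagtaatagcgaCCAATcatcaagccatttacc
Reln, chr5:22344706-22344955, minus strand: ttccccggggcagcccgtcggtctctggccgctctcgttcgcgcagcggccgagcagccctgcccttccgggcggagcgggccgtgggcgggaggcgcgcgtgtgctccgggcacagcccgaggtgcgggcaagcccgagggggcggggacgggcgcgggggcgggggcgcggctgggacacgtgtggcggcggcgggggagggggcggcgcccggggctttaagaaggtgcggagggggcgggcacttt
Nhlh2, chr3:102009895-102010110, plus strand: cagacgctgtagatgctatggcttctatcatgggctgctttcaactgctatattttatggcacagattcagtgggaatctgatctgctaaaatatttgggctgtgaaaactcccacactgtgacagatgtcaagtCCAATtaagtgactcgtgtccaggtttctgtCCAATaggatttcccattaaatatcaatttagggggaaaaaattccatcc

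The gap between Lhx1 and Lhx1os is 125 bases long with 66.4% G and C, and the one between Emx2os and Emx2 is 54 bases long with 53.7%. The Reln stretch had 80.0% G and C and the Nhlh2 stretch 41.2%. The CCAAT box occurred 1 time in each of the paired gaps, 2 times before Nhlh2 and not before Reln. Windows of the same length and place in 32851 RefSeq promoters held it in 21.9% (the Lhx1 length), 9.52% (Emx2), 30.5% (Nhlh2) and 33.8% (Reln). The palindromes CAGCTG and TAATTA, and TATAAA on either strand, had 0 matches in the 4 stretches. Promoter windows were found for 15 of the 21 genes looked for (the 20 leading genes and Lhx5).

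Genes that led the members were named by the mean over mice of log2 of the CPM in members over the CPM in other cells (5 CPM added to each), among genes with at least 0.5 UMIs per member. After Snhg11 at 7.0 ± 0.25 (SD over 8 mice), Reln at 6.85 ± 0.36 and Nhlh2 at 6.81 ± 0.34 came Clstn2, a synaptic calsyntenin, at 6.18 ± 0.30. Cacna2d2, an accessory subunit of voltage-gated calcium channels, and Calb2, which encodes calretinin, both had 5.90, with SDs of 0.59 and 0.37. Bcl11a, a zinc finger transcription factor, Meg3, Lhx1 and Lhx1os followed at 5.56 to 5.83. The list went on at 5.06 to 5.52 with the neuronal RNA-binding proteins Celf4 and Elavl4 and the vesicle proteins Syt1 and Syt4. In the same range were the growth cone protein Gap43, the Slit receptor Robo2, Bex1 and the neurite factor Nrn1. The homeobox factor Emx2 and the vesicular glutamate transporter Slc17a6 also lay there. Each of the 20 was higher in members in 8 of 8 mice, which the ranking by the mean over these same mice favours. Of all 17143 genes, 2.54% were at least 4-fold higher in members on this measure and 5.59% at least 4-fold lower. The members were chosen on these counts, so no test was made.

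**Figure D2:**
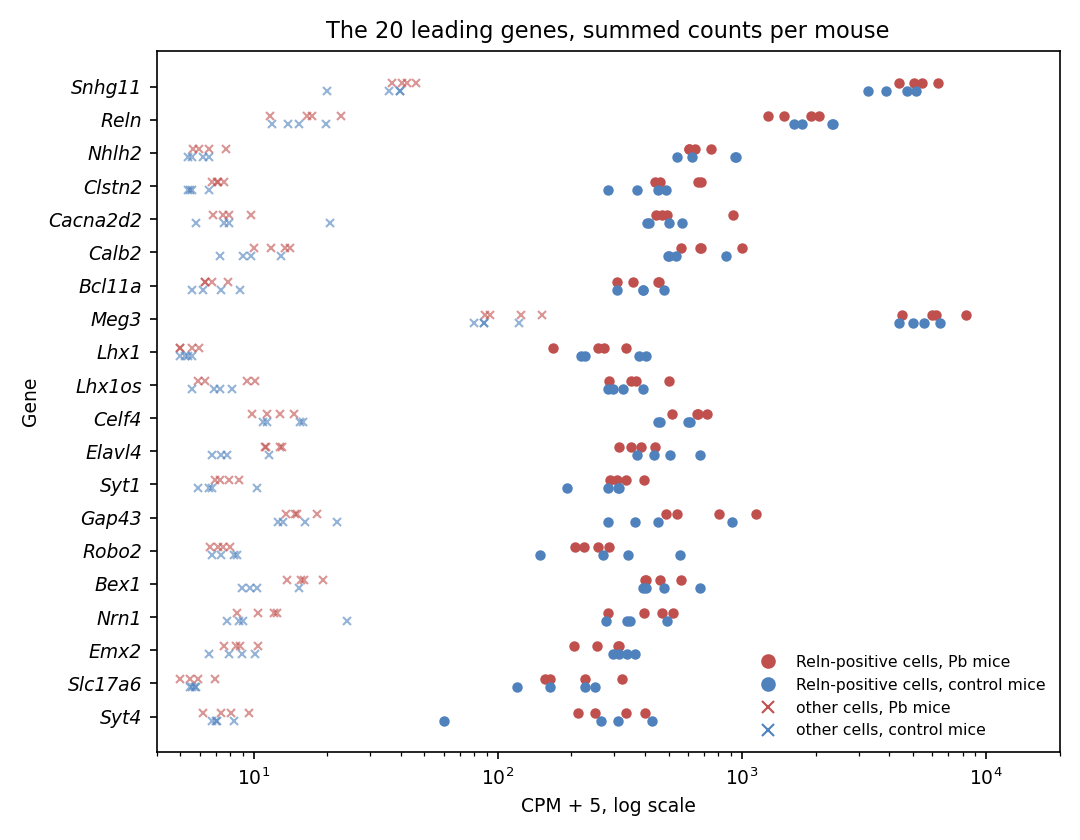
Levels of the 20 leading genes (y axis) in CPM plus 5 on a log axis, 1 circle per mouse for the members and 1 cross per mouse for all its other cells, with Pb mice in red and control mice in blue. For every gene the circles of all 8 mice lie to the right of all crosses; the Snhg11 circles run from 3267 to 6334 CPM.

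At the low end, among genes with at least 0.5 UMIs per other cell, the hemoglobin genes Hba-a2 and Hba-a1 stood at -5.04 and -4.15 on the same log2 measure. Hes1, a Notch target that holds back neuronal differentiation, was at -4.11, as was the smooth muscle gene Tagln. The 20 lowest genes were lower in members in all 8 mice. They were ranked by the mean over these same mice, which favours such agreement, so this is a description only.

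Further Cajal-Retzius genes were counted from a list of 27, of which 26 were in the table and 14 were at least 4-fold higher in members, 2 at least 4-fold lower and 1, Eomes, at 0. Trp73, whose product p73 keeps these cells alive, had a UMI in 78 of 104 members and in 2.20% of other cells. Its level was 249, 279, 278 and 340.2 CPM in Pb mice F1, F2, M1 and M2, and 0, 359, 229 and 263 CPM in the controls. The 0 belongs to the 2 cells of control female F1, and the other 7 mice lay close together. Tbr1, a T-box factor of early glutamatergic neurons, was detected in 77 members at a level of 295 CPM against 1.22 CPM in other cells. Calb2 was detected in 85. Of Trp73, Calb2 and Tbr1, all 3 were seen in 53 members and none in 2.

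The list also holds secreted and surface genes. Ndnf, a secreted factor, was detected in all 104 members. Its level was 1257, 1851, 1496 and 1546 CPM in the Pb mice, and 1550.2, 1668, 1464 and 1740.5 CPM in the controls. The groups overlapped, and the highest mouse was 1.47 times the lowest. Cxcl12, the chemokine that the meninges also make, was likewise present in every member, at 1405 to 5260 CPM per mouse against 544 CPM in other cells. Its receptor gene Cxcr4, which Cajal-Retzius cells use to stay under the pia, was detected in 48 members and 2.02% of other cells. The nuclear receptor gene Nr2f2 had a UMI in 89 members (85.6%) and in 18.6% of other cells. The factor gene Ebf3 had one in 56 members (53.8%, against 3.14%) and the factor gene Barhl2 in 46 (44.2%, against 0.667%).

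Reelin's receivers were sparse in the cells that make it. Vldlr and Lrp8 were each detected in 12 members, at 18.4 and 17.0 CPM, below the 30.6 and 40.7 CPM of the other cells. Dab1 was detected in 5 members, at 7.07 CPM. Of the 36 listed genes of the pathway, 3 were at least 4-fold higher in members, among them Reln itself and Cdk5r1, the activator of the kinase Cdk5, at 294 CPM against 23.1 CPM. Another 4 were at least 4-fold lower. The median of the list was -0.55 on the log2 measure.

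Among the transmitter genes, Slc17a6, which encodes the vesicular glutamate transporter VGLUT2, was detected in 68 members (65.4%) and in 0.568% of other cells. The forebrain transporter gene Slc17a7 was detected in 2 members, Slc17a8 in 1 and the GABA synthesis gene Gad1 in 2. Gad1 was found in 1.92% of members and 1.57% of other cells, shares near each other at the depth as sequenced. Gad2 had a UMI in 0 of 104 members, which allows a share with a UMI of up to 2.88% (3 cells), and in 3 of the other 5101 cells. This limits cells with a UMI of the gene, not cells that express it. Of 14 GABA neuron and interneuron genes in the table, 2 were at least 4-fold higher in members and 1 at least 4-fold lower. Of 12 pyramidal cell genes 3 were at least 4-fold higher and 0 lower, and of 8 granule cell genes 0 were higher and 2 lower. With every cell thinned to 3000 UMIs, which left out 2 members, Slc17a6 was present in 47.1% of members and 0.225% of other cells. Gad1 was then present in 1.96% of members (2 cells) and 0.744% of other cells.

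Receptor genes differed in how often they were seen. The AMPA receptor subunit gene Gria2 was detected in 96 members. Its level was 336, 636, 477 and 503 CPM in the Pb mice and 388, 316, 305 and 756 CPM in the controls, with 70.9 CPM in all other cells. Gria1 was detected in 46 members and the NMDA receptor core subunit gene Grin1 in 34 (32.7%, against 0.647% of other cells). The partner subunits had few UMIs: Grin2a had 0 UMIs over all members, which allows up to 4.24 CPM, Grin2b was detected in 1 and Grin2c in 3. Of 20 glutamate receptor genes in the table, 3 were at least 4-fold higher in members and 5 had no UMI. Among GABA receptor genes, Gabra2 was detected in 28 members, and Gabra4, Gabra5 and Gabrb2 in none. The chloride importer gene Slc12a2 was at 28.3 CPM and the exporter gene Slc12a5 at 5.65 CPM, with UMIs in 17 and 4 members.

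Of the channel and synaptic genes, a minority in each list was at least 4-fold higher in members, beside 2.54% of all genes. Of 15 calcium channel genes, 4 were at least 4-fold higher and 1, Cacna1h, had no UMI. Besides Cacna2d2, its relative Cacna2d1 was detected in 81 members, at 269.9 CPM against 10.7 CPM, and the presynaptic N-type channel gene Cacna1b in 38. Of 23 sodium and potassium channel genes, 7 were at least 4-fold higher and 1 at least 4-fold lower. Kcnh7, a potassium channel of the ERG family, was the most often detected, in 59 members. Of 26 synaptic vesicle genes, 10 were at least 4-fold higher. Snap25, a component of the release machinery, lay at 345 CPM in members against 13.0 CPM in other cells. Of 36 adhesion and axon guidance genes, 7 were at least 4-fold higher, with Cntnap2 (76 members) and Flrt3 (80 members) beside Robo2. In that list 2 were at least 4-fold lower, Nlgn1, Tenm3, Slit1 and Unc5d had no UMI, and the median was -0.01 on the log2 measure.

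Of 34 general neuronal genes, 25 were at least 4-fold higher in members and 2 had no UMI. These 2 were Rbfox3, which encodes the common neuronal nuclear antigen NeuN, and Nefl, a neurofilament subunit. Of 12 newborn neuron genes in the table, 4 were at least 4-fold higher in members and 0 at least 4-fold lower. The median of that list was 1.23 on the log2 measure. Within it, Dcx, a gene of migrating young neurons, had 1 UMI over all members. Stmn1, an immature neuron gene with wide expression, was present in all of them, at 1680 CPM against 737 CPM. Neurons of other kinds were scarce in the table. Of the other 5101 cells, 7 had Snap25, Syt1 and at least 5 Meg3 UMIs, against 73 of the 104 members. The thresholds of that count were chosen after the values were seen.

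**Figure D3:**
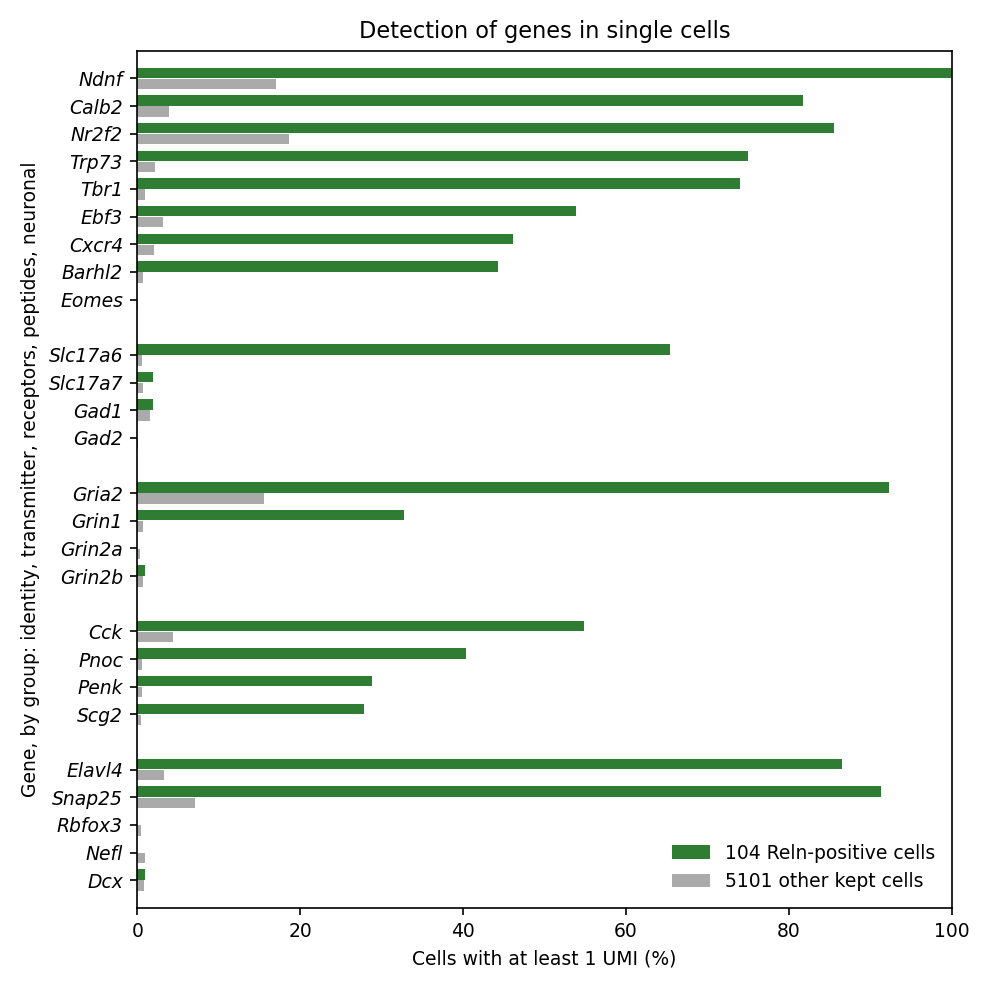
Percent of cells with at least 1 UMI (x axis, not corrected for depth) for named genes (y axis), in 104 members (green) and 5101 other cells (grey). Slc17a6 is seen in 65.4% of members and Gad2 in none, and Grin1 in 32.7% with no Grin2a.

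The spread between members differed from gene to gene. Over 311 genes with at least 0.5 UMIs per member and a level at least 4 times that of other cells, the variance beyond counting error, as a squared fraction of the mean, had a median of 0.15. For 12 genes it was above 1, and Arhgap20 (1.89) and Gm5424 (1.43) were among them. Penk, the precursor of enkephalins, had the highest value, 4.26, and Scg2, a granin of dense-core vesicles, 2.41. Cck, the cholecystokinin precursor, had 1.37, and Pnoc, the precursor of nociceptin, 1.14. Chgb, another granin gene, had 0.08. These genes were chosen after their values were seen.

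Penk had no UMI in 74 members and 6 or more in 2, with a highest count of 15. The 10 cells with most of it held 63.2% of its UMIs. The same share was 46.4% for Cck, 48.2% for Pnoc and 24.4% for Ndnf, which was detected in every member. For Trp73 it was 27.6% and for Tbr1 34.0%. A low total count raises this share by counting alone, and the totals differed. Penk had 87 UMIs, Pnoc 85, Cck 261, Trp73 196, Tbr1 209 and Ndnf 1088. By mouse, Penk was detected in 11 of 30, 3 of 10, 2 of 8 and 6 of 21 members in Pb mice F1, F2, M1 and M2, and in 0 of 2, 2 of 11, 0 of 10 and 6 of 12 in the controls. The peptide genes were not exclusive of each other: 19 members held Penk and Cck, 26 held Cck and Pnoc, and 15 held Penk and Pnoc. Another 26 held none of the 3, with a median of 5397 UMIs.

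RNA of marker genes of other cell classes was present in the members. Mbp, a myelin gene, had a UMI in all 104 members and in 99.9% of the other cells. The complement gene C1qb of microglia was seen in 100 members. Over the lists of markers, 10 of 12 oligodendrocyte, 8 of 9 microglia, 6 of 8 astrocyte and 8 of 8 endothelial genes were at least 4-fold lower in members. Summed oligodendrocyte markers ran from 4638 to 8817 CPM per mouse in members and from 18926 to 32679 CPM in other cells. The choroid plexus gene Ttr differed most between mice. In members it was at 4222, 0, 132 and 356 CPM in the Pb mice and at 0, 3177, 15.3 and 14451 CPM in the controls, and the summed choroid markers of the other cells were high in the same mice, at 14841 CPM in Pb female F1, 8874 in control female F2 and 49622 in control male M2.

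The first comparison asked whether exposed mice had a different share of these cells. The share was 2.57% of kept cells in Pb female F1 (30 of 1167), 2.12% in F2 (10 of 472), 0.735% in male M1 (8 of 1089) and 2.47% in M2 (21 of 851). In the controls it was 0.948% in female F1 (2 of 211), 1.93% in F2 (11 of 570), 2.71% in male M1 (10 of 369) and 2.52% in M2 (12 of 476). Each group held 1 low mouse and 3 near 2 to 3%, and the ranges overlapped almost entirely. The 95% Wilson interval of the low Pb mouse was 0.373 to 1.44%, and that of the low control mouse was 0.260 to 3.39%. The means were 1.97% ± 0.848 (SD, n = 4) with Pb and 2.03% ± 0.793 in controls, a difference of -0.0543 percentage points (exact two-sided permutation p = 0.857; the smallest p that the 70 arrangements allow is 0.0286). The difference turned positive, to 0.358 points without Pb male M1, 0.173 without control male M1 and 0.110 without control male M2, and it was -0.414 without control female F1. The Pb mice gave 895 ± 312 kept cells and the controls 407 ± 154 (exact permutation p = 0.0857), and a share cannot tell fewer members from more of the other cells.

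**Figure D4:**
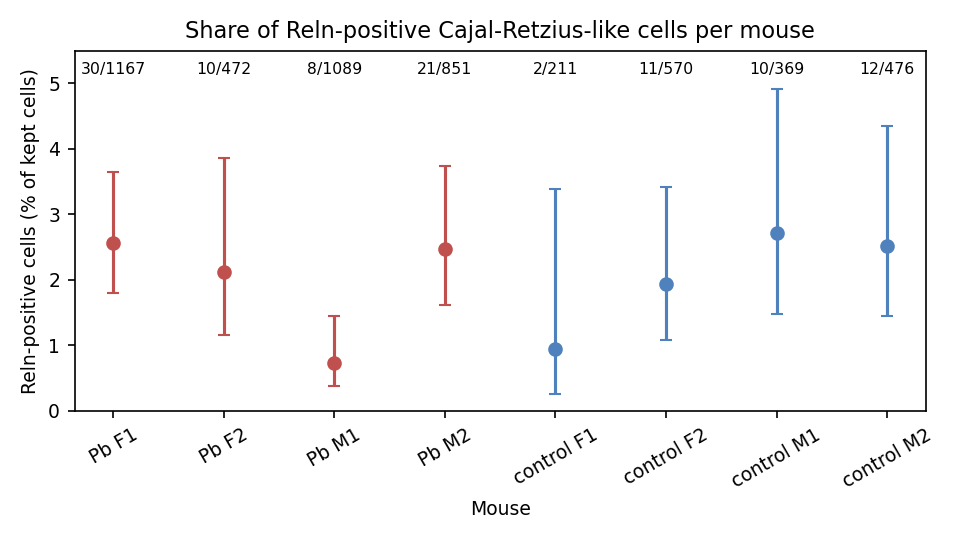
Members as a percent of kept cells (y axis) in each of 8 mice (x axis), Pb in red and control in blue, with 95% Wilson intervals as bars and the cell numbers above. Pb male M1 at 0.735% and control female F1 at 0.948% are low; the other 6 mice lie between 1.93% and 2.71%.

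The second comparison asked which genes differed between Pb and control mice within the members. Counts were summed per mouse over its members, and the 6 mice with at least 10 members entered the fit: Pb F1, F2 and M2, and control F2, M1 and M2. With edgeR's quasi-likelihood test and sex as a covariate, 0 of 1606 genes passed an adjusted p of 0.05 (percent called 0). At an unadjusted p under 0.05 there were 13 higher genes (0.809%) and 17 lower ones (1.06%). DESeq2 called 0 with 7 at an unadjusted p under 0.05, and limma-voom called 0 with 38. The labels do not say that the mice came from separate litters, so these p-values measure the spread between mice that may share dams. The values below are those of the 8 smallest p and are not calls: each had an adjusted p of 0.999.

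2 of the 8 are chaperone genes. Cryab, a small heat shock protein, was at 399.6, 234 and 472 CPM in Pb mice F1, F2 and M2, and at 144, 214 and 183 CPM in control mice F2, M1 and M2. The fitted log2 difference was 1.21 (SE 0.31). Outside the fit, Pb M1 was at 410.5 CPM. Control F1 was at 222 CPM from 4 UMIs, too few to place it against Pb F2. Cryab is also made by oligodendrocytes, and it was 4.35 times lower in members (319 CPM) than in other cells (1389 CPM). The Hsph1 level was 209, 413 and 239.7 CPM with Pb and 43.1, 198 and 91.6 CPM in controls, a log2 difference of 1.39 (SE 0.47). It was 2.82 without Pb M2 and 0.73 without control F2. Here control female F1, not in the fit, reached 332 CPM from 6 UMIs.

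Of the 18 listed heat shock genes 13 were tested. On the log2 scale 9 were above 0 and 4 below, with a median of 0.24, none was called and the median of all 1606 genes was 0.00. The median was 0.12 without control F2 and 0.15 without Pb F2 or control M2. The summed list overlapped between groups: 11682 to 13854 CPM in the fitted Pb mice and 9619 to 12551 CPM in control F2, M1 and M2. Outside the fit, Pb M1 had 14990 CPM, and control F1, with 2 members, had 20707 CPM. Hspa8 and Hsp90ab1, the listed genes seen in every member, lay at 2389 and 2878 CPM. Of 22 immediate early genes, which respond to stimulation and also to tissue dissociation, 15 were tested, 3 above 0 and 12 below, with a median of -0.17 and none called. Ier2 was at 463, 268 and 263 CPM with Pb and at 762, 824 and 240.5 CPM in controls, where M2 lay below the 3 Pb mice and the other 2 above them. The median of the immediate early genes turned positive without Pb M2 (0.07) and without control M1 (0.05).

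Of the genes that mark the cells, Tbr1 was among the 8. It was at 232, 289.9 and 217 CPM in the fitted Pb mice and at 532, 397 and 263 CPM in the fitted controls, a log2 difference of -0.82 (SE 0.28), and -0.39 with all 8 mice in the fit. The groups overlapped, since control M2 lay below Pb F2. Pb male M1, outside the fit, had 384 CPM. The 14 tested genes of the Cajal-Retzius list were split evenly, 7 above 0 and 7 below. Car10, a carbonic anhydrase-related gene, had the other small p of that list, with 255, 268 and 363 CPM against 187, 168 and 229 CPM (log2 0.68, SE 0.31). Outside the fit, Pb M1 had 185 CPM of Car10, within the range of the fitted controls, and control F1 had 0 UMIs. Of 24 tested general neuronal genes 15 were above 0 and none had an unadjusted p under 0.05.

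The remaining genes of small p have other roles. Hs3st1, a heparan sulfate sulfotransferase, was at 209, 123 and 116 CPM with Pb and at 288, 458 and 298 CPM in controls (log2 -1.18, SE 0.35). The difference was -0.66 without Pb M2 and -1.72 without control F2. Kif1b, a kinesin of axonal transport, was at 284, 468 and 409.8 CPM against 144, 183 and 286 CPM (log2 0.98, SE 0.34). Dst, a cytoskeletal linker, had -0.88 (SE 0.33) and the little-studied 1500009L16Rik -0.78 (SE 0.30). Outside the fit, control female F1 had 443 CPM of Kif1b, within the Pb range, and 0 UMIs of Hs3st1, which at its depth allows up to 166 CPM and so cannot be placed against the Pb mice.

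**Figure D5:**
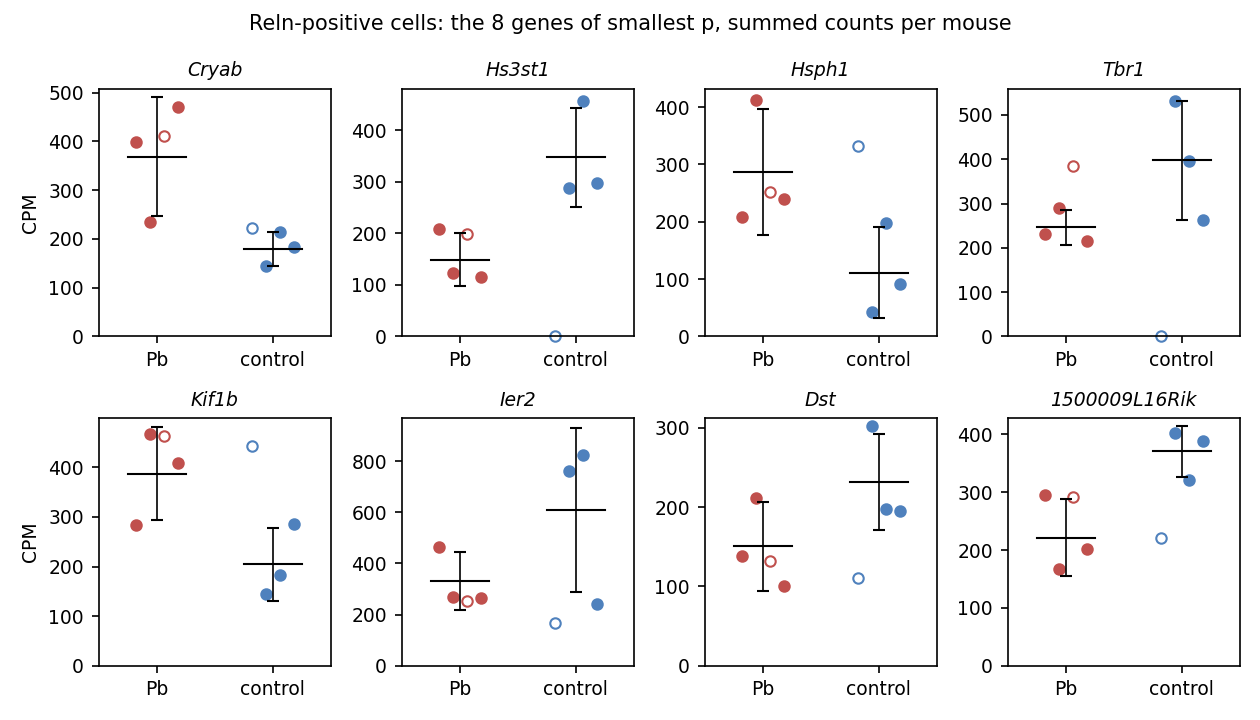
CPM in members (y axis) for the 8 genes of smallest p, 1 point per mouse in Pb (red) and control (blue); filled points are the 6 mice in the fit, whose mean and SD are drawn in black, and open points are the mice with under 10 members. Cryab in the fitted Pb mice runs from 234 to 472 CPM and in the fitted controls from 144 to 214 CPM.

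Genes of lead handling and of the metals lead replaces were few in the test. Of 27 listed, 8 were tested, 5 above 0 and 3 below, with a median of 0.06 (-0.04 without control M2) and none with an unadjusted p under 0.05. Mt3, a brain metallothionein, was at 295, 234 and 217 CPM with Pb and at 158, 122 and 240.5 CPM in controls. The heme synthesis gene Alad, whose enzyme lead inhibits, had 11 UMIs over all members and was not tested. Of 23 glutamate receptor genes 1 was tested (Gria2, log2 0.17). None of the 18 GABA receptor and chloride genes had enough counts. Of 12 oligodendrocyte markers 8 were tested, with a median of 0.49 (0.29 without control M2, 1.17 with members taken from 1 Reln UMI up), and Ptgds and Cldn11 had an unadjusted p under 0.05. Ptgds was at 1031, 847.5 and 874 CPM against 748, 427 and 584 CPM in the same mice. Outside the fit, Pb M1 had 689 CPM of Ptgds, below control F2, and control F1 had 166 CPM. The list's sum ran from 5218 to 7449 CPM in Pb mice and from 4638 to 8817 CPM in controls, and its part in the other values was not tested.

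The third comparison asked whether the Pb difference in members was unlike that in all other cells of the same mice. In a fit with each mouse as a block, edgeR called 2 of 11927 genes (0.0168%), Plppr4 and Mia, and limma-voom called 0. Plppr4, a phospholipid phosphatase-related membrane protein of neurons, differed by 2.90 on the log2 scale (SE 0.50; adjusted p = 6.39e-05). In members of Pb mice F1, F2 and M2 it was at 75.3, 167 and 139 CPM, from 13 to 18 UMIs, and in control mice F2, M1 and M2 at 71.9, 91.5 and 91.6 CPM, from 5 to 8 UMIs. In the other cells of those mice it was at 32.7, 4.84 and 5.00 CPM against 17.0, 1.58 and 196 CPM. The highest of these values belonged to control male M2, the mouse with the highest choroid markers, and without it the difference was 0.19 with an adjusted p of 1.00. Without Pb female F2 it was 2.27 and without Pb male M2 2.12, with edgeR adjusted p of 0.222 and 1.00. Without Pb female F1 the difference was larger, at 4.56 (edgeR adjusted p = 7.93e-11).

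Mia, a secreted protein of cartilage and melanoma cells, differed by 2.21 (SE 0.49; edgeR adjusted p = 0.0332). Its level in members was 174, 189.6 and 116 CPM with Pb and 201, 107 and 126 CPM in controls, with full overlap. In the other cells it was at 17.3, 1.61 and 2.12 CPM against 13.99, 2.77 and 75.8 CPM, again highest in control male M2. Without that mouse the difference was 0.53, with an adjusted p of 1.00. Leaving out Pb female F2 gave 1.64 and leaving out Pb male M2 gave 1.78, neither past the threshold. Leaving out Pb female F1 gave 3.76 (edgeR adjusted p = 2.54e-05). The part of the choroid plexus RNA in these values was not tested.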

How the data were processed

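The deposited table holds raw UMI counts of 17143 genes in 5258 cells. The authors' tools were Cell Ranger and Seurat, and their build was mm10, per the submitters' processing notes; versions, annotation, strand setting and cell filter were not given in the sources used here. Columns were assigned to mice by the start of their names (0 columns were left over). Cells above 20% mitochondrial UMIs were removed (53), and members were found by the rule given above. Members and gene lists were chosen with earlier results of these data known.

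CPM came from counts summed per mouse. Shares were compared by exact permutation, and gene sums by edgeR 4.0.16 (quasi-likelihood test, TMM, filterByExpr, sex as covariate, Benjamini-Hochberg over all genes tested), with DESeq2 1.42.0 and limma 3.58.1 as alternatives; Scrublet ran in scanpy 1.11.5. The fit within members was tested on simulated data with changes larger than the differences named for it above. That test cannot say whether differences of the named size would be found. Named genes were the 20 leading genes, all genes called or else the 8 of smallest p, and from each list up to 4 of highest level and up to 2 of smallest p. Over 28 pairs of mice the chi-square per degree of freedom was 4.51 to 57.0, and no 2 libraries were alike within counting noise. Sequences and positions come from RefSeq on GRCm38.p6, the same build as mm10. The values of some listed genes are not reported here.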

Additional observations from a re-analysis of the deposited data

Results flagged for a closer look

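In 90 groups of 4 mice examined for a value set apart from the other 3 by Dixon's criterion, 4 were found, and chance alone flags about 5% of groups. Cacna2d2 in members of Pb female F2 was at 914.4 CPM, and the other 3 Pb mice were at 440.2 to 487 CPM. Calb2 in control male M1 was at 854 CPM, and the other control mice were at 492 to 532 CPM. Ttr in Pb female F1 was at 4222 CPM, with 0 to 356 CPM in the other Pb mice. Ier2 in Pb female F1 was at 463 CPM, with 252 to 268 CPM in the others.

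For 2 genes the test of the difference itself, edgeR's interaction with mouse as a block, set the Pb effect in members apart from that in all other cells: Plppr4 by 2.90 and Mia by 2.21 on the log2 scale. Neither was called without control M2, Pb F2 or Pb M2, each left out whole, members included, and the cause was not tested.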

How the results depend on the processing

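The exact p of the difference in share was above 0.05 in each alternative run, and its sign changed with cells thinned to 3000 UMIs (0.0774 points; 466 Pb and 199 control cells were too shallow) and without single mice (-0.414 to 0.358; positive without Pb M1, 0.358, without control M1, 0.173, and without control M2, 0.110). Within members edgeR called 0 genes; with no filter on low counts it called 1 (Ttr) and without Pb F1 also 1 (Ttr), so leaving out mice gave 0 to 1. The mice share replicate numbers, but same-numbered mice did not deviate together (correlations -0.08 to 0.05 over 3807 genes). With the replicate block in place of sex, which rests on 2 shared numbers, 3 genes were called (Hsph1, Enpp2, Ttr), Hsph1 at 2.15 with an edgeR adjusted p of 0.0177 (0.0177 to 1.00 over its alternatives); for the share the block gave -0.0543 points with an exact sign-flip p = 0.875. The 20 single-gene results had 342 values under alternative settings in all. Of these, 332 kept sign and side of the threshold, and 8, of Plppr4 and Mia, lost that side. Syt1 (main 0.32) reversed to -0.08 without control F2 (-0.08 to 0.89 without single mice). A limit of 10% mitochondrial UMIs and the removal of Scrublet calls left the same 104 members, so those values repeat the main fit. For genes compared within members, keeping the side meant staying uncalled from an edgeR adjusted p of 0.999. The count of genes with differing effects was 2; it was 0 by limma-voom, 6 with all 8 mice and 0 to 8 without single mice, at 0 without control M2, Pb M2 or Pb F2 and at 8 without Pb F1, 6 without control M1 and 4 without control F2. The cause was not tested. With 2 to 30 members per mouse, genes of low level had too few counts for a test.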
